A study of Macaca mulatta with 27 samples.

Results

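The genes described here are 9 classical transcriptional regulators of endoderm and mesoderm: SOX17, GATA4, GATA6, FOXA1 and FOXA2 for endoderm, and T (brachyury), EOMES, HAND2 and FOXC1 for mesoderm. They were chosen by symbol, and all 9 were found among the 17967 gene symbols of the count tables. The RNA came from rhesus macaque pluripotent stem cells (PSCs), either in the primed state, which resembles the epiblast about to gastrulate, or after reprogramming towards the naive state of the earlier epiblast. There were 6 libraries of primed cells and 3 libraries for each of 7 reprogramming protocols, namely TL-CDK8i, TL2i, LCDM (EPS), t2iLGöY, 4i/L/b and the NHSM variants E-NHSM and NHSM-v.

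Each protocol is a defined mixture of cytokines and small-molecule inhibitors. TL2i cells received LIF, tamoxifen and inhibitors of MEK and GSK3β. TL-CDK8i cells also received tamoxifen, with an inhibitor of the Mediator kinases in place of those inhibitors. Tamoxifen activates STAT3-ERT2, a hormone-dependent form of STAT3 that was delivered by a lentiviral vector, and the other protocols and the primed cells were cultured without tamoxifen. As a model the series is limited to 1 clonal line, LyonES-tGFP-(S3), which carries that transgene and a tauGFP transgene driven by the ubiquitous CAG promoter in every group. Primed cells were passaged in clumps and reprogrammed cells as single cells, so the protocol and the way of passaging cannot be told apart.

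At gastrulation, cells of the epiblast leave through the primitive streak under Nodal, WNT and BMP signals. T and EOMES are T-box factors that switch on in the streak, EOMES at its anterior end, where it precedes both definitive endoderm and the first heart precursors. SOX17, FOXA1, FOXA2, GATA4 and GATA6 then build the endoderm, and the GATA factors and SOX17 also mark the primitive endoderm of the blastocyst, the layer that forms the yolk sac. HAND2 acts in lateral plate mesoderm, heart and limb, and FOXC1 in paraxial mesoderm, vessels and neural crest. None of these genes is a pluripotency factor, although GATA6 and EOMES are also known from other early lineages and several members have later sites in the nervous system.

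The libraries held between 7111886 and 20760914 counts, with a median of 12201171. Levels are given as CPM, counts scaled to a common library size after TMM normalisation, as mean ± SD, and levels of different genes are not compared because gene lengths were not used. A limit of 3 counts in a library was taken as the floor, which stood at 0.141 to 0.429 CPM. Intervals and floors cover counting error only. Each protocol was compared with primed cells by edgeR's quasi-likelihood test on all genes that passed its filter, with Benjamini-Hochberg adjustment over all of them and a threshold of 0.05. The labels do not say whether libraries of a group came from separate cultures, so p-values measure the spread between these samples, which may be technical. The summed CPM of 11 pluripotency markers was 7491 to 8456 in primed cells and 7960 to 8109 in E-NHSM cells, against 2054 to 2814 in TL-CDK8i cells and 193 to 674 in the other protocols. In bulk RNA, fewer cells that express a gene and less RNA per cell cannot be told apart.

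Primed cells carried little of most of these RNAs, and their libraries were not alike. The columns of the primed table bear the letters J and K, with 3 libraries each, whose meaning the labels do not give. The sample titles record 2 sets of 3 primed libraries and another label field names 3 sets, but neither ties a set to a letter, so all 6 were taken as one group. GATA6, which drives primitive endoderm and later heart and gut, was at 0.893, 2.05 and 7.29 CPM in the J libraries and at 0 in all 3 K libraries. GATA4, its close relative, was at 0.447, 3.34 and 7.86 CPM in the J libraries and at 0, 0.0691 and 0.355 CPM in the K libraries. FOXA2, a pioneer factor of streak-derived endoderm, was at 3.24, 6.58 and 3.43 CPM in the J libraries and at 0.513, 1.04 and 0.266 CPM in the K libraries. The J libraries thus lay above the K libraries in every case for these 3 genes. EOMES did not separate them, at 7.48, 16.0 and 9.0 CPM in J and 5.99, 10.2 and 7.98 CPM in K. Nor did SOX17, FOXA1, T, HAND2 and FOXC1, whose J and K ranges overlapped. The share of all genes that separate J from K was not counted, so nothing particular to the regulators is read from this.

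A secreted antagonist of Nodal made by anterior endoderm, CER1, showed the same division, with 14.2, 42.7 and 56.6 CPM in the J libraries against 1.54, 1.38 and 2.22 CPM in the K libraries. MIXL1, a homeobox gene of the streak, was at 17.2, 11 and 18 CPM in J and at 9.16, 3.39 and 6.12 CPM in K. HNF4A, which marks visceral endoderm and liver, had no count in any primed library. SOX17 stood out in library J2, with 2.48 CPM from 23 counts, while the other 5 primed libraries together held 1 count. Part of the spread against which every protocol was tested therefore came from a few J libraries, and its part in the results was measured by leaving them out.

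**Figure D1:**
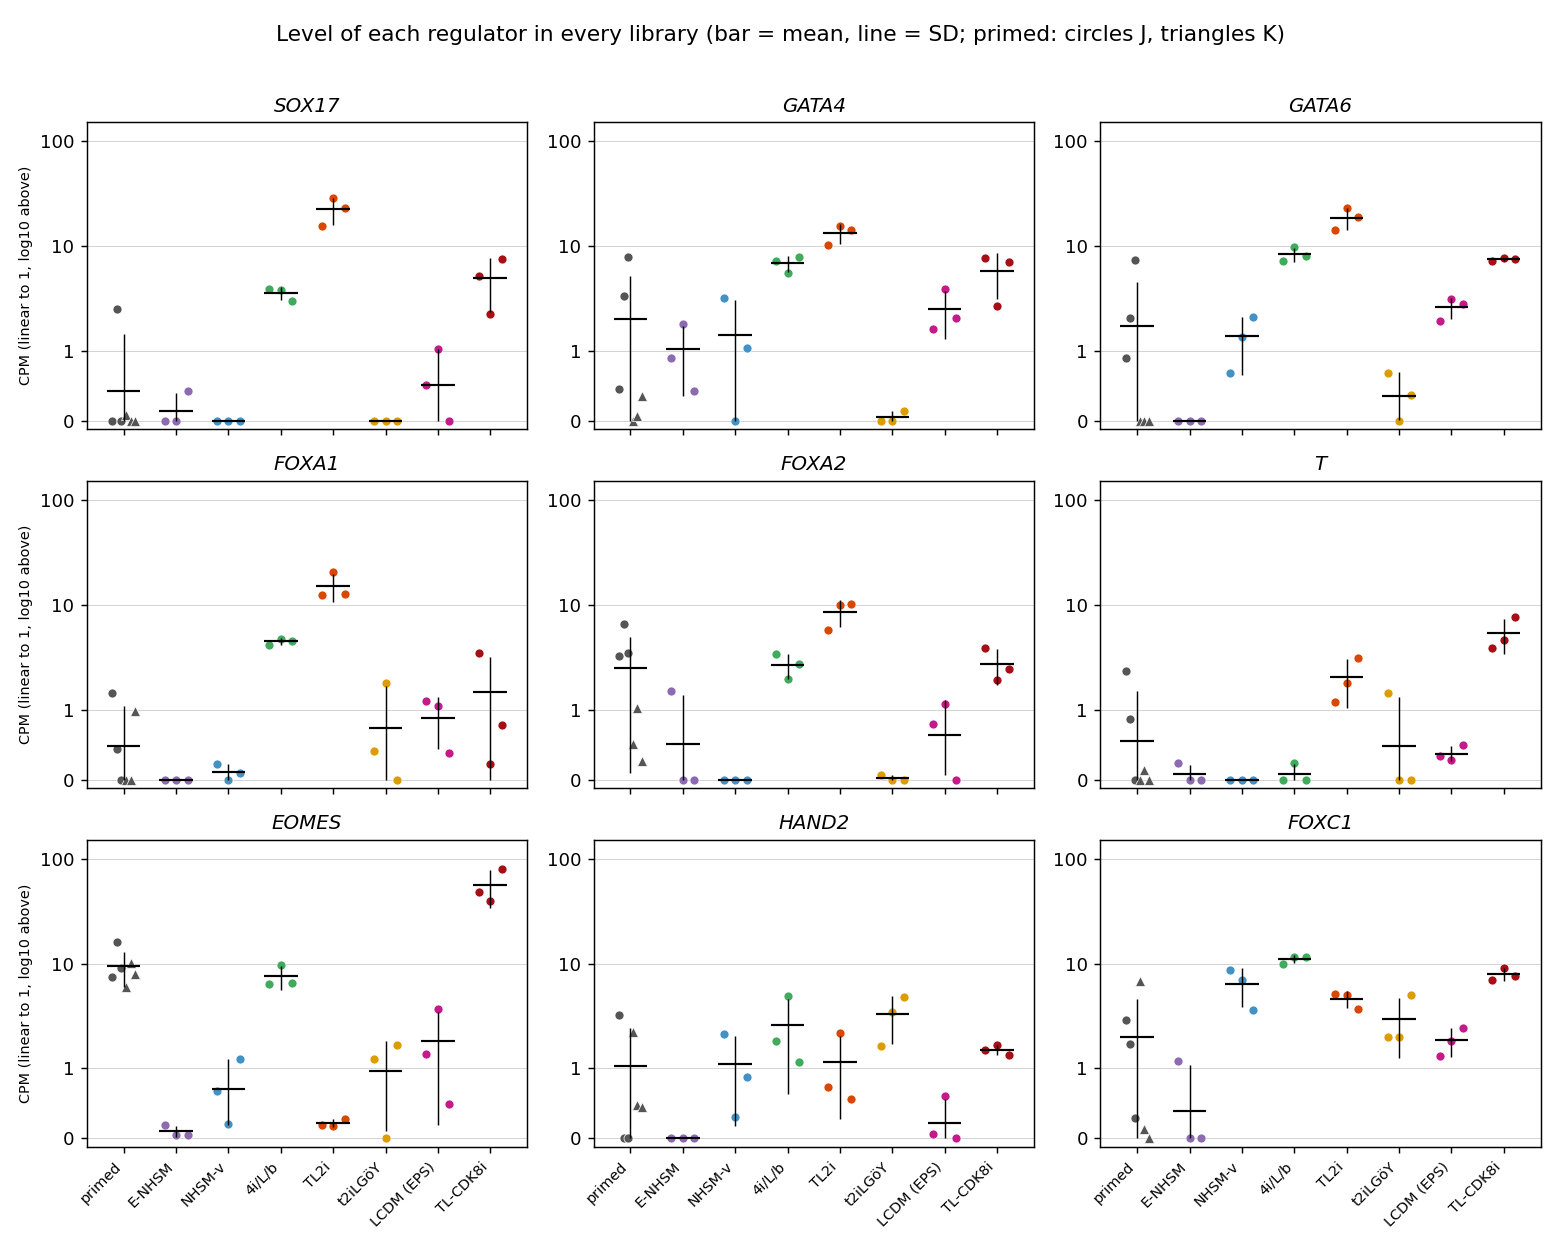
CPM of the 9 regulators (vertical axis, linear up to 1 and log10 above) in each of the 27 libraries by group, with the mean as a bar and the SD as a line; in primed cells circles are J and triangles are K libraries. The 5 endoderm factors are highest in TL2i cells, EOMES and T in TL-CDK8i cells, and the K triangles lie at 0 for GATA6.

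Against primed cells, SOX17, FOXA1, GATA6 and GATA4 rose and EOMES fell in TL2i cells, EOMES, T and SOX17 rose in TL-CDK8i cells, and FOXA1 and FOXC1 rose in 4i/L/b cells. In TL2i cells all 9 members passed the filter and were tested, of which 4 rose, beside 25.6% of all genes tested, and 1 fell, beside 25.2%. In TL-CDK8i cells 8 were tested, of which 3 rose, beside 22.3% of all genes, and 0 fell, beside 23.8%. In 4i/L/b cells 8 were tested, with 2 that rose, beside 26.6%, and 0 that fell, beside 29%.

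Against all 6 primed libraries, no regulator rose in the other 4 protocols. With K columns alone, GATA4 and GATA6 were called higher in LCDM (EPS) cells, as given below. In E-NHSM cells 5 members were tested, with 0 higher, beside 11.1% of all genes, and 1 lower, beside 15.1%. In NHSM-v cells 6 were tested, with 0 higher, beside 28%, and 2 lower, beside 30.6%. In t2iLGöY cells 7 were tested, with 0 higher, beside 27.1%, and 2 lower, beside 27.2%. In LCDM (EPS) cells 6 were tested, with 0 higher, beside 28.2%, and 1 lower, beside 28.9%. The counts rest on only 5 to 9 members and lie on either side of the shares of all genes, so nothing particular to the regulators is read from them. Members not tested had too few counts in both groups for the filter, and their levels are given below.

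**Figure D2:**
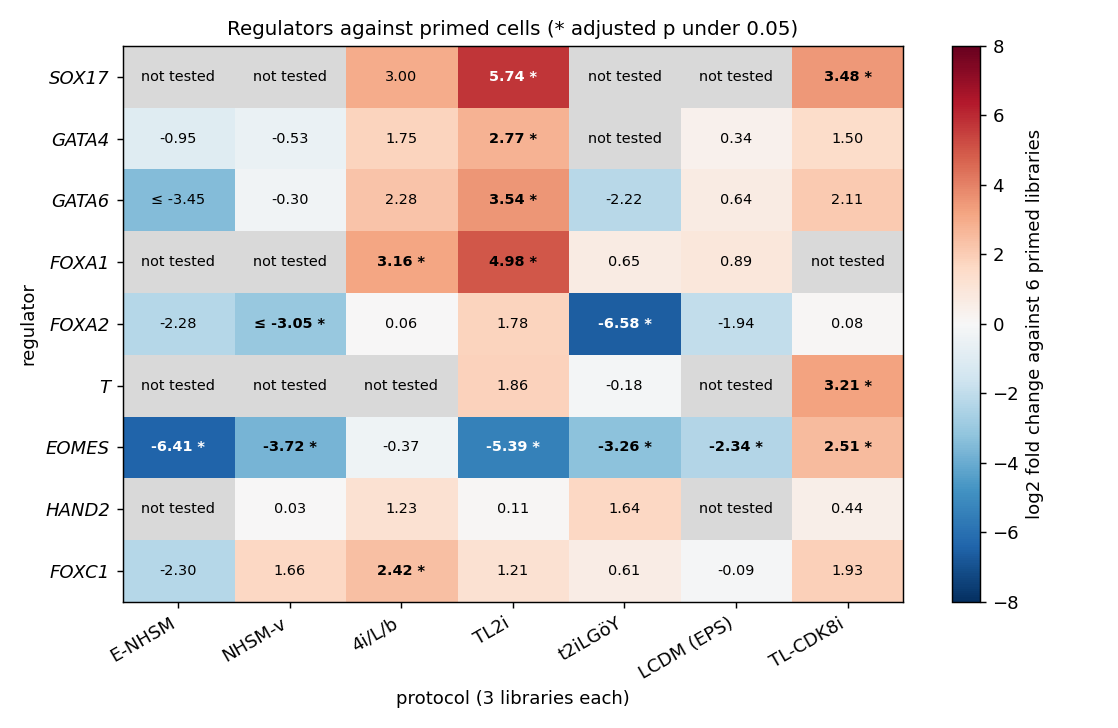
Log2 fold change of each regulator (rows) in each protocol (columns, 3 libraries) against the 6 primed libraries, with an asterisk where the adjusted p was under 0.05 and grey where the gene did not pass the filter; ≤ marks a bound where the protocol had no count, and FOXA2 in t2iLGöY is the log2 ratio of the counts. EOMES changed in 6 of 7 protocols, downwards in 5 and upwards in TL-CDK8i, while the block of positive values for SOX17, GATA4, GATA6 and FOXA1 is deepest in TL2i.

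SOX17, the HMG-box factor that specifies endoderm and is also made by endothelium and germ cells, was at 15.5, 28.2 and 22.9 CPM in TL2i cells. Primed cells ran from 0 to 2.48 CPM with a median of 0, so the groups did not overlap. SOX17 rose by 5.74 ± 0.98 (log2 ± SE, adjusted p = 0.00027), a 53.4-fold change, and the call held in all 16 alternatives. The size of the change rests on J2, without which the primed libraries held 1 count and the ratio of the levels was 1161 (95% interval 208 to 45911). In TL-CDK8i cells its level was 5.16, 2.23 and 7.54 CPM, of which the lowest lay under primed J2. It rose there by 3.48 ± 1.35 (adjusted p = 0.048), and 7 of 16 alternatives kept the call. Without J2 the ratio was 272 (95% interval 48.1 to 10830, adjusted p = 0.00017). It was lost with DESeq2 (adjusted p = 0.20), with J columns alone (0.14), and without any 1 of primed J1, K1, K2 and K3 (0.066 to 0.071) or of the TL-CDK8i libraries (0.073 to 0.19).

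In 4i/L/b cells SOX17 was at 3.84, 3.77 and 2.98 CPM, above every primed library, with a log2 difference of 3.00 ± 1.39 that missed the threshold (adjusted p = 0.082). Without primed J2 it passed (adjusted p = 0.00017), with a ratio of 188 (95% interval 32.9 to 7482). NHSM-v and t2iLGöY cells had no SOX17 count in any library. E-NHSM libraries held 0, 0 and 0.431 CPM and LCDM (EPS) libraries 0.512, 1.04 and 0 CPM, within the primed range. SOX17 did not pass the filter in these 4 protocols; of the alternatives without that filter, all 27 libraries in one fit called it lower in t2iLGöY cells (adjusted p = 0.038), against a primed level that came from J2.

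FOXA1, a pioneer factor of foregut, liver and gut epithelium, was likewise highest in TL2i cells. Those libraries held 12.3, 20.4 and 12.6 CPM of FOXA1, against a primed range of 0 to 1.45 CPM with a median of 0.216. It rose by 4.98 ± 0.88 (adjusted p = 0.00034), a 31.6-fold change with no overlap, and all 16 alternatives kept the call. Without primed J1 the change was 50.6-fold. In 4i/L/b cells FOXA1 was at 4.13, 4.74 and 4.52 CPM, also above every primed library, and rose by 3.16 ± 1.15 (adjusted p = 0.031). That call was lost without any 1 of the 3 4i/L/b libraries (adjusted p of 0.08 to 0.095) and was kept in the other 13 of 16 alternatives, with a log2 difference of 3.88 without primed J1.

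TL-CDK8i cells differed among themselves in FOXA1, with 3.44, 0.223 and 0.773 CPM, and did not pass the filter. t2iLGöY libraries were at 0.409, 1.80 and 0 CPM and LCDM (EPS) libraries at 1.19, 1.08 and 0.379 CPM, with log2 differences of 0.65 ± 1.63 (adjusted p = 0.76) and 0.89 ± 1.37 (adjusted p = 0.60). E-NHSM cells had no FOXA1 count, at least 3.04-fold lower than primed, or 1.80-fold without J1, and NHSM-v cells had 3 counts in all, a ratio of 0.224 (95% interval 0.0436 to 0.726), or 0.359 (0.0665 to 1.27) without J1 and 0.106 (0.0026 to 0.642) without NHSM-v library 1. Neither passed the filter, and all 27 libraries in one fit called FOXA1 lower in E-NHSM cells (adjusted p = 0.016).

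GATA6 was at 14.1, 22.8 and 18.7 CPM in TL2i cells, above the primed range of 0 to 7.29 CPM with its median of 0.447. It rose by 3.54 ± 1.06 (adjusted p = 0.013), an 11.7-fold change that became 34.4-fold without primed J3. The call was lost with DESeq2 (adjusted p = 0.15) and without TL2i library 2 (0.057), and was kept in the other 14 alternatives. TL-CDK8i libraries were close to one another at 7.11, 7.58 and 7.54 CPM and 4i/L/b libraries at 7.11, 9.72 and 7.99 CPM. Both groups reached down to primed J3, with log2 differences of 2.11 ± 1.23 (adjusted p = 0.18) and 2.28 ± 1.24 (adjusted p = 0.13). Without J3 these became 3.65 (adjusted p = 0.013) and 3.85 (adjusted p = 0.0083).

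GATA6 had no count in any E-NHSM library, at least 10.9-fold lower than primed cells, or 3.76-fold without J3, with an adjusted p of 0.055 that passed the threshold without any 1 of the K libraries (0.041 to 0.043). NHSM-v libraries were at 0.677, 1.34 and 2.11 CPM, t2iLGöY libraries at 0.682, 0 and 0.361 CPM and LCDM (EPS) libraries at 1.93, 3.11 and 2.76 CPM. All 3 lay within the primed range and had adjusted p values of 0.35 to 0.88. Against K columns alone, which held no GATA6 count, GATA6 was called higher in LCDM (EPS) cells (adjusted p = 0.00069). With J columns alone its log2 difference there was -0.35 (adjusted p = 0.75).

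GATA4, which acts beside GATA6 in yolk sac endoderm and heart, had TL2i values of 10.1, 15.5 and 14.1 CPM against a primed range of 0 to 7.86 CPM and a median of 0.401. It rose by 2.77 ± 1.03 (adjusted p = 0.037), a 6.84-fold change with no overlap, or 16.4-fold without primed J3. The call was kept in 8 of 16 alternatives. It was lost with DESeq2 (adjusted p = 0.12), with J columns alone (0.055), and without any 1 of primed J1, K2 and K3 (0.053 to 0.069) or of the TL2i libraries (0.068 to 0.11).

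Levels of GATA4 in 4i/L/b cells were 7.11, 5.47 and 7.89 CPM and in TL-CDK8i cells 7.57, 2.67 and 7.06 CPM. The former overlapped primed J3 and the latter J2 and J3, with log2 differences of 1.75 ± 1.14 (adjusted p = 0.21) and 1.5 ± 1.17 (adjusted p = 0.32), which became 3.03 (adjusted p = 0.021) and 2.75 (adjusted p = 0.044) without J3. t2iLGöY cells held 2 counts of GATA4 over the group, a ratio to primed of 0.0303 (95% interval 0.00362 to 0.113), or 0.064 (0.00749 to 0.247) without J3, and GATA4 did not pass the filter. Of the alternatives that kept it, DESeq2 (adjusted p = 0.0094) and all 27 libraries in one fit (0.0043) called it lower, and edgeR without a filter did not (0.061). Both counts lay in t2iLGöY library 3, without which GATA4 was at least 9.94-fold lower. E-NHSM (0.895, 1.78 and 0.431 CPM), NHSM-v (3.16, 0 and 1.06 CPM) and LCDM (EPS) cells (1.59, 3.87 and 2.06 CPM) lay within the primed range, with adjusted p values of 0.69 to 0.84. Against K columns alone GATA4 was called higher in LCDM (EPS) cells (log2 difference 4.12, adjusted p = 0.0073). With J columns alone the difference there was -0.59 (adjusted p = 0.61).

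FOXA2 was the one endoderm factor with a fall called by edgeR's test after its filter. It had no count in any NHSM-v library, at least 8.27-fold lower than primed cells (adjusted p = 0.0044), and 1 count in the 3 t2iLGöY libraries together, a ratio of 0.0104 (95% interval 0.000262 to 0.0591, adjusted p = 0.0063). That ratio was 0.0159 without primed J2 or t2iLGöY library 2, and without t2iLGöY library 1, which held the count, FOXA2 was at least 12-fold lower. The lowest primed library, K3, was at 0.266 CPM from 3 counts, which is the floor, the median at 2.14 and the highest at 6.58. No library of either protocol reached K3, but a gap at the floor does not separate them from it. Both calls held in each of the 15 alternatives that kept the gene. With K columns alone FOXA2 did not pass the filter, so neither fall was tested against them. Its mean was 0.605 CPM in the K libraries and 4.42 CPM in the J libraries.

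In TL2i cells FOXA2 was at 5.68, 9.84 and 10.1 CPM, a log2 difference of 1.78 ± 0.75 that missed the threshold (adjusted p = 0.062). Its lowest library lay under primed J2. Without J2 the difference was 2.36 (adjusted p = 0.018) and without J3 1.90 (0.050), and DESeq2 called it on all libraries (0.042). TL-CDK8i (3.90, 1.89 and 2.42 CPM) and 4i/L/b cells (3.36, 1.94 and 2.69 CPM) stood amid the primed libraries, with log2 differences of 0.08 ± 0.90 (adjusted p = 0.95) and 0.06 ± 0.89 (adjusted p = 0.96). Against K columns alone FOXA2 was called higher in TL2i (3.75, adjusted p = 0.00013), TL-CDK8i (2.09, 0.039) and 4i/L/b cells (2.08, 0.026). With J columns alone the TL-CDK8i and 4i/L/b differences were -0.72 (0.37) and -0.74 (0.29). E-NHSM libraries were at 1.51, 0 and 0 CPM (adjusted p = 0.29, and 0.023 without library 1), and LCDM (EPS) libraries at 0.797, 1.13 and 0 CPM (adjusted p = 0.22).

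EOMES was present in every primed library, from 5.99 to 16.0 CPM with a median of 8.49, and it changed in 6 of the 7 protocols, more than any other member. Each of those calls held in all 16 alternatives. In TL-CDK8i cells EOMES was at 47.8, 39.1 and 80.1 CPM, every library above every primed one. It rose by 2.51 ± 0.28 (adjusted p = 5.3e-06), a 5.71-fold change.

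In 5 protocols EOMES fell. E-NHSM libraries held 0.188, 0.0556 and 0.0538 CPM, 6 counts in all, and EOMES fell by 6.41 ± 0.67 on the log2 scale (adjusted p = 1.1e-06). Without E-NHSM library 1 the ratio to primed was 0.00586 (95% interval 0.000708 to 0.0213). TL2i libraries held 0.196, 0.175 and 0.283 CPM, 11 counts in all, and it fell by 5.39 ± 0.56 (adjusted p = 3.1e-06). E-NHSM cells, whose summed pluripotency markers lay within the primed range, and TL2i cells, whose markers did not, thus both carried little EOMES.

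NHSM-v libraries were at 0.677, 0.206 and 1.23 CPM of EOMES, and it fell by 3.72 ± 0.61 (adjusted p = 8.6e-05), with a log2 difference of -4.41 without library 3. t2iLGöY libraries were at 1.23, 0 and 1.66 CPM, and it fell by 3.26 ± 0.82 (adjusted p = 0.0035), with a log2 difference of -2.67 without library 2 and -3.89 without library 3. LCDM (EPS) libraries spread most, at 1.37, 3.68 and 0.487 CPM, and it fell by 2.34 ± 0.59 (adjusted p = 0.0039), with a log2 difference of -3.31 without library 2. No library of these protocols reached the lowest primed one. In 4i/L/b cells the level was 6.34, 9.72 and 6.54 CPM, inside the primed range, with a log2 difference of -0.37 ± 0.36 (adjusted p = 0.41).

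T, the founding T-box gene and the marker of nascent mesoderm and notochord, was near the floor in most libraries. Primed libraries ran from 0 to 2.35 CPM with a median of 0.0691, and J1 held the highest value. TL-CDK8i libraries were at 3.90, 4.57 and 7.64 CPM, all above the primed ones, and T rose by 3.21 ± 1.19 (adjusted p = 0.039), a 9.27-fold change that became 25.4-fold without primed J1. The call was kept in 11 of 16 alternatives, and was lost with J columns alone (adjusted p = 0.084), without primed K2 (0.068) and without any 1 of the TL-CDK8i libraries (0.075 to 0.16).

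TL2i cells came next for T, at 1.18, 1.81 and 3.11 CPM, a log2 difference of 1.86 ± 1.31 (adjusted p = 0.26) that became 3.28 without primed J1 (adjusted p = 0.048). t2iLGöY libraries were at 1.43, 0 and 0 CPM (adjusted p = 0.95). NHSM-v cells had no T count, 4i/L/b cells 2 counts in all, E-NHSM cells 5, and LCDM (EPS) cells 21, and T did not pass the filter in these 4 protocols. All 27 libraries in one fit called it lower in NHSM-v cells (adjusted p = 0.038).

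HAND2, a bHLH factor of heart, limb and sympathetic neurons, was not called in any of the 5 protocols where it passed the filter. Its highest mean level was in t2iLGöY cells, with libraries at 1.64, 3.47 and 4.77 CPM, against a primed range of 0 to 3.24 CPM and a median of 0.464, a log2 difference of 1.64 ± 1.21 (adjusted p = 0.27). 4i/L/b libraries were at 1.83, 4.86 and 1.15 CPM (adjusted p = 0.40), TL-CDK8i libraries at 1.49, 1.67 and 1.35 CPM (adjusted p = 0.80), TL2i libraries at 0.735, 2.16 and 0.566 CPM (adjusted p = 0.95) and NHSM-v libraries at 2.14, 0.309 and 0.880 CPM (adjusted p = 0.99). Every one of these groups overlapped primed cells. E-NHSM cells had no HAND2 count, at least 6.80-fold lower than primed, or 4.03-fold without J1, and LCDM (EPS) libraries held 0.0569, 0 and 0.613 CPM. Neither passed the filter; in E-NHSM cells HAND2 was called lower by DESeq2 (adjusted p = 0.005) and by all 27 libraries in one fit (0.0042) but not by edgeR without a filter (0.051).

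FOXC1, a forkhead factor of somites, vessels and cranial mesenchyme, was highest in 4i/L/b cells, at 9.99, 11.7 and 11.5 CPM. Primed libraries ran from 0 to 6.85 CPM, K1 being the highest, with a median of 1.01. FOXC1 rose by 2.42 ± 0.97 (adjusted p = 0.047), a 5.36-fold change without overlap, or 11-fold without primed K1. Only 8 of 16 alternatives kept the call, which was lost with DESeq2 (adjusted p = 0.11), with K columns alone (0.072), and without any 1 of primed J1, J2 and K2 (0.06 to 0.071) or of the 4i/L/b libraries (0.095 to 0.12).

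TL-CDK8i libraries, at 7.0, 9.14 and 7.54 CPM, also lay above every primed one, yet the log2 difference of 1.93 ± 1.00 missed the threshold (adjusted p = 0.13). Without primed K1 it was 2.94 (adjusted p = 0.025). NHSM-v libraries were at 8.68, 7.0 and 3.61 CPM, with a log2 difference of 1.66 ± 1.06 (adjusted p = 0.20) that became 2.69 (adjusted p = 0.041) without K1. TL2i (5.10, 5.07 and 3.68 CPM), t2iLGöY (1.98, 2.00 and 4.98 CPM), LCDM (EPS) (1.31, 1.84 and 2.44 CPM) and E-NHSM cells (1.18, 0 and 0 CPM) overlapped primed cells, with adjusted p values of 0.36 to 0.96.

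The 2 protocols that activate STAT3-ERT2 share LIF and tamoxifen and differ in their inhibitors, and EOMES was higher in TL-CDK8i cells while 3 of the endoderm factors were higher in TL2i cells. In a fit of the 21 protocol libraries, EOMES was higher in TL-CDK8i than in TL2i cells by 7.93 ± 0.76 (log2, adjusted p = 1.6e-09), the sole member of 9 tested that was higher, beside 25.8% of all genes. FOXA1 was lower by 3.38 ± 0.84 (adjusted p = 0.0016), SOX17 by 2.18 ± 0.69 (adjusted p = 0.011) and GATA6 by 1.35 ± 0.45 (adjusted p = 0.014), which made 3 of 9 lower, beside 27.1% of all genes. For these 4 genes no library of one protocol reached the range of the other. The same held for GATA4, FOXA2, T and FOXC1, which were not called, so it does not set the called genes apart. The share of all genes without overlap was not counted.

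The EOMES and FOXA1 calls held in all 26 alternatives of that comparison, and the FOXA1 difference was -4.92 without TL-CDK8i library 1. SOX17 was lost with all 27 libraries in one fit (adjusted p = 0.13), with DESeq2 (0.15), without TL2i library 2 (0.070) and without TL-CDK8i library 2 (0.058), and GATA6 with all 27 libraries (0.30) and without TL2i library 2 (0.087). The other members were not called. GATA4 differed by -1.22 ± 0.64 (adjusted p = 0.11, and 0.050 without NHSM-v library 2), FOXA2 by -1.67 ± 1.01 (adjusted p = 0.17), T by 1.37 ± 1.15 (adjusted p = 0.33), FOXC1 by 0.74 ± 0.62 (adjusted p = 0.33) and HAND2 by 0.35 ± 0.98 (adjusted p = 0.79).

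Of the 2 NHSM versions, NHSM-v had more of the mesoderm factors FOXC1 and HAND2 than E-NHSM. FOXC1 was higher by 3.96 ± 0.74 (adjusted p = 3.7e-05), and at least 39.2-fold without E-NHSM library 1, which held all of its counts there. HAND2 was at least 7.09-fold higher (adjusted p = 0.00045), or 3.80-fold without NHSM-v library 1, and GATA6 at least 8.79-fold higher (adjusted p = 1.3e-06), since E-NHSM cells had no count of either. EOMES was higher by 2.74 ± 1.04 (adjusted p = 0.022), from 22 counts against 6, with a ratio of 13.4 (95% interval 3.30 to 118) without E-NHSM library 1, and was lost without E-NHSM library 2 (0.059) or 3 (0.061) or NHSM-v library 3 (0.19). This made 4 of 9 higher, beside 35.2% of all genes.

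FOXA2 alone was lower in NHSM-v cells, 1 of 9 beside 33.8% of all genes. E-NHSM cells were at least 1.65-fold higher (adjusted p = 0.024), but all 32 of their counts lay in library 1, and without it both groups were at 0. The call was also lost without any 1 of the NHSM-v libraries (adjusted p of 0.054 to 0.064).

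Over the 21 pairs of protocols the 9 members gave 189 tests, of which 118 passed the threshold, where 53.8% of all tests of all genes did. GATA6 differed in 18 of 21 pairs, SOX17 and EOMES in 16 each, FOXA1 in 14, GATA4 in 13, FOXA2 in 12, T and FOXC1 in 10 each, and HAND2 in 9. The order of the levels could be resolved at a few steps only. For SOX17, TL2i lay above TL-CDK8i (adjusted p = 0.011, with the exceptions given above), TL-CDK8i and 4i/L/b did not differ beyond their spread (0.61), and 4i/L/b lay above LCDM (EPS) (0.0055). For GATA6, the steps from TL2i to 4i/L/b (0.058) and from 4i/L/b to TL-CDK8i (0.75) were within the spread, while TL-CDK8i lay above LCDM (EPS) (0.0073), NHSM-v above t2iLGöY (0.0088, and 0.073 without NHSM-v library 3) and t2iLGöY above E-NHSM (0.00074).

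For EOMES, TL-CDK8i lay above 4i/L/b by 2.85 ± 0.54 on the log2 scale (adjusted p = 7.9e-05) and 4i/L/b above LCDM (EPS) by 2.03 ± 0.57 (adjusted p = 0.0041). The 4 steps below that, from LCDM (EPS) through t2iLGöY, NHSM-v and TL2i to E-NHSM, did not differ beyond their spread (adjusted p of 0.13 to 0.74). For GATA4 and FOXA2 the sole resolved step was from E-NHSM down to t2iLGöY (adjusted p of 0.0016 and 0.032). That of FOXA2 rested on E-NHSM library 1, without which the adjusted p was 0.44, and was also lost without t2iLGöY library 2 (0.087) or 3 (0.085). For HAND2 and FOXC1 it was from LCDM (EPS) down to E-NHSM (0.015 and 0.012). That of HAND2 rested on LCDM (EPS) library 2 (adjusted p = 0.28 without it), with a difference of at least 1.43-fold, while that of FOXC1 was kept without any 1 library (adjusted p of 0.049 or less). For FOXA1 and T no neighbours in the order could be told apart.

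Several members are also active outside endoderm and mesoderm, so markers of those sites were read beside them. HNF4A, which defines visceral endoderm and hepatocytes, was at 16.7 ± 4.47 CPM in TL2i cells (SD, n = 3), 4.53 ± 0.993 in 4i/L/b, 1.69 ± 1.32 in TL-CDK8i and 1.09 ± 0.945 in LCDM (EPS) cells. It had no count in any library of primed, E-NHSM, NHSM-v or t2iLGöY cells. By mean level the same order, with TL2i first and 4i/L/b second, held for FOXA1, GATA4 and GATA6. In the fit of the 21 protocol libraries that step was within the spread (adjusted p of 0.098, 0.31 and 0.058). For SOX17 and FOXA2 the second was TL-CDK8i. SHH, which FOXA2 switches on in the floor plate of the neural tube and which gut endoderm also makes, was at 4.39 ± 1.68 CPM in TL2i cells and under 1 CPM on average in every other group.

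LMX1A, a marker of the roof plate and ventral midbrain, was at 49.4 ± 2.65 CPM in TL2i cells, but at 190 ± 25.3 CPM in t2iLGöY cells, which had almost no FOXA2. SOX10, the neural crest factor, was at 126 ± 30.5 CPM in TL2i cells, 178 ± 70.9 CPM in t2iLGöY, 20.4 ± 6.67 CPM in TL-CDK8i and 35.1 ± 6.73 CPM in 4i/L/b cells, against 1.51 ± 1.24 in primed cells (n = 6). Its part in the levels of FOXC1 and HAND2 was not tested.

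**Figure D3:**
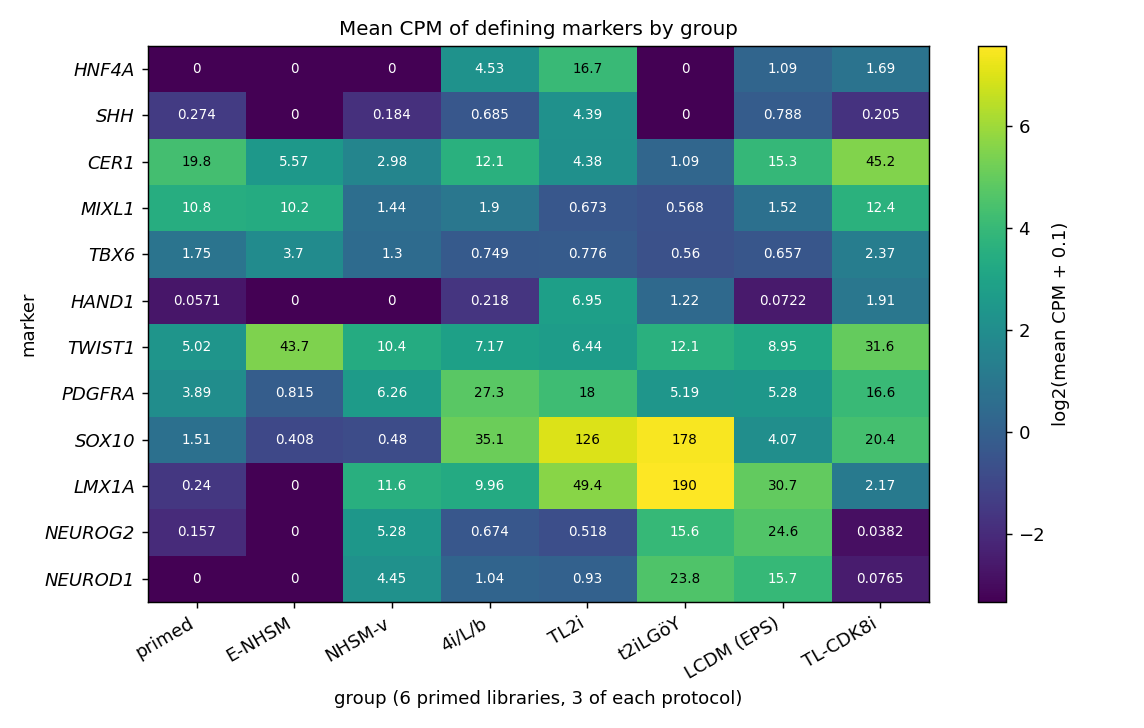
Mean CPM of 12 markers of endoderm, mesoderm, neural crest and nervous system (rows) in the 8 groups (columns), coloured by log2 of the mean plus 0.1. HNF4A peaks in TL2i, CER1 in TL-CDK8i, and the neurogenic genes NEUROG2 and NEUROD1 in t2iLGöY and LCDM (EPS) cells.

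EOMES also marks intermediate progenitors of the cortex, where it follows NEUROG2 and precedes NEUROD1. In TL-CDK8i cells, where EOMES was highest, NEUROG2 was at 0.0382 ± 0.0662 CPM and NEUROD1 at 0.0765 ± 0.132 CPM, both near 0. In LCDM (EPS) and t2iLGöY cells, where EOMES fell, NEUROG2 was at 24.6 ± 4.02 and 15.6 ± 5.11 CPM. CER1 was at 45.2 ± 20.3 CPM in TL-CDK8i cells and at 19.8 ± 24.0 CPM in primed cells, and MIXL1 at 12.4 ± 5.64 and 10.8 ± 5.87 CPM. MIXL1 was also at 10.2 ± 4.42 CPM in E-NHSM cells and under 2 CPM on average in the other 5 protocols. TBX6, of presomitic mesoderm, was at 2.37 ± 0.678 CPM in TL-CDK8i and 3.70 ± 0.512 CPM in E-NHSM cells.

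HAND1, the relative of HAND2 in heart and extraembryonic mesoderm, was at 6.95 ± 2.16 CPM in TL2i, 1.91 ± 0.343 in TL-CDK8i and 1.22 ± 0.945 in t2iLGöY cells and at 0.218 CPM or less in the other groups. PDGFRA, which marks both primitive endoderm and mesenchyme, was at 27.3 ± 4.82 CPM in 4i/L/b, 18 ± 1.86 in TL2i and 16.6 ± 1.55 in TL-CDK8i cells against 3.89 ± 2.56 in primed cells. TWIST1, of mesenchyme, was at 43.7 ± 5.26 CPM in E-NHSM and 31.6 ± 6.25 CPM in TL-CDK8i cells.

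The wider endoderm programme was read in 2 lists that overlap in HNF4A and TTR. Counts in these and the following lists stand beside the shares of all genes tested. In E-NHSM cells 11.1% of all genes were higher and 15.1% lower. In the other protocols 22.3% to 28.2% were higher and 23.8% to 30.6% lower. Of 13 tested genes of primitive and visceral endoderm, 10 rose and 0 fell in TL2i cells, with a median log2 fold change of 1.80 against 0.07 over all genes tested. They included HNF4A, at least 55.0-fold higher, the basement membrane genes LAMA1 (2.71 ± 0.13) and COL4A1 (2.65 ± 0.12), and DAB2, an endocytic adaptor of visceral endoderm (1.80 ± 0.19), each with an adjusted p of 3.9e-06 or less. These and the other genes picked out in the lists were named after their values were seen, unless said otherwise.

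In NHSM-v cells, which had no SOX17 count, 7 of 11 tested rose and 1 fell (median 1.33), in 4i/L/b cells 10 of 13 rose and 1 fell (median 1.73) and in TL-CDK8i cells 8 of 12 rose and 1 fell (median 1.31). In LCDM (EPS) cells 1 of 11 rose and 6 fell, in E-NHSM cells 1 of 12 rose and 6 fell, and in t2iLGöY cells 4 of 12 rose and 4 fell. SPARC, DAB2, LAMC1 and LAMB1, named by rule as the genes called in all 7 protocols and not always in the same direction, were all higher in TL-CDK8i, TL2i, 4i/L/b and NHSM-v cells and all lower in E-NHSM and LCDM (EPS) cells. SPARC and the laminins are also made by fibroblasts. The summed CPM of 10 fibroblast markers was 11648 to 15136 in 4i/L/b, 8739 to 11309 in TL-CDK8i, 7899 to 8438 in NHSM-v and 2959 to 5755 in TL2i cells, against 1152 to 2550 in primed cells, and its part in the list was not tested.

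Of 14 tested genes of definitive endoderm and its derivatives, 7 rose and 3 fell in TL2i cells (median 2.05). APOA1, an apolipoprotein of liver and yolk sac, rose from 12.5 ± 3.01 to 176 ± 45.5 CPM (log2 fold change 3.80 ± 0.19, adjusted p = 2.2e-09). APOB rose by 2.08 ± 0.33 (adjusted p = 0.00013) and CXCR4, a chemokine receptor used to sort definitive endoderm, by 3.08 ± 1.01 (adjusted p = 0.021). AFP, a fetal liver and yolk sac protein, fell by 5.78 ± 1.16 (adjusted p = 0.00094), FOXA3 by 1.87 ± 0.35 (adjusted p = 0.00059) and CLDN6 by 1.98 ± 0.09 (adjusted p = 7.2e-10). ALB and APOA2 stayed at a mean of 0.211 and 0.406 CPM in TL2i cells.

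In the other protocols 3 of 12 tested genes of that list rose and 2 fell in TL-CDK8i cells (median 1.18), and 4 of 13 rose and 4 fell in 4i/L/b cells (median -0.06). The 4i/L/b counts stood beside 26.6% of all genes higher and 29% lower. In NHSM-v cells 2 of 10 rose and 6 fell, in t2iLGöY cells 3 of 11 rose and 6 fell, in LCDM (EPS) cells 3 of 11 rose and 4 fell, and in E-NHSM cells 0 of 10 rose and 3 fell. CLDN6, named by rule as the gene of the list called in all 7 protocols, is a tight junction gene that PSCs also express.

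Of the genes of lateral plate and heart mesoderm, 12 of 14 tested rose in TL-CDK8i cells, beside 22.3% of all genes, and 2 fell, beside 23.8%. The median was 3.70 against 0.02 over all genes. Of the 22 listed genes, TBX5, TBX20, NKX2-5, GATA5, FOXF1 and SMYD1 had no count in any primed library. Such a gene passed the filter only where the protocol expressed it and could then not fall. This raises both the share that rose and the median. The T-box factor TBX5 was at 14.3 ± 1.33 CPM, at least 47.3-fold higher than primed cells, and NKX2-5, an early heart factor, at 6.94 ± 3.17 CPM, at least 22.9-fold higher; neither had a count in a primed library. ACTC1, cardiac alpha actin, rose from 105 ± 19.7 to 1203 ± 177 CPM (log2 fold change 3.46 ± 0.13, adjusted p = 3.0e-10), and MEF2C rose by 4.47 ± 0.37 (adjusted p = 3.4e-07). KDR, a receptor of vascular endothelial growth factor, fell by 1.29 ± 0.21 (adjusted p = 0.00015). The summed CPM of the 22 genes was 1285 to 1656 in TL-CDK8i cells, 422 to 442 in 4i/L/b, 330 to 353 in TL2i and 245 to 282 in primed cells. Most of it was ACTC1, without which the sum was 287 to 343 in TL-CDK8i, 132 to 143 in 4i/L/b, 234 to 250 in TL2i and 118 to 166 in primed cells.

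In TL2i cells 9 of 14 tested genes of the heart list rose and 2 fell (median 2.23), with HAND1 (6.59 ± 1.04, adjusted p = 0.00013) and the BMP targets MSX1 (6.73 ± 0.70, adjusted p = 2.7e-06) and MSX2 (8.07 ± 0.72, adjusted p = 6.0e-07) among them. TBX5 and NKX2-5 were at 0.0388 and 0.646 CPM there. Counts were 5 of 11 up and 3 down in 4i/L/b cells, 6 of 12 up and 5 down in t2iLGöY, 3 of 9 up and 4 down in NHSM-v, 2 of 12 up and 6 down in LCDM (EPS), and 0 of 7 up and 4 down in E-NHSM cells.

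Primitive streak genes were called in both directions in every protocol but E-NHSM, where 0 of 12 tested rose and 3 fell. Outside E-NHSM, 22.3% to 28.2% of all genes were higher and 23.8% to 30.6% lower, so calls in both directions are not particular to this list. In TL-CDK8i cells 6 of 16 tested rose and 3 fell (median 1.25). LHX1, a homeobox gene of anterior mesendoderm, rose from 4.75 ± 6.54 to 33.9 ± 1.21 CPM (2.84 ± 0.81, adjusted p = 0.0098), FGF17 by 3.81 ± 1.03 (adjusted p = 0.0072), and the WNT targets SP5 and DKK1 by 5.45 ± 1.00 (adjusted p = 0.00045) and 6.0 ± 0.85 (adjusted p = 4.8e-05), while NODAL fell by 1.01 ± 0.28 (adjusted p = 0.0088). MESP1 had 6 counts or fewer in each TL-CDK8i library and none in primed cells, and MSGN1 had no count in either.

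In TL2i cells 5 of 17 streak genes rose, beside 25.6% of all genes, and 5 fell, beside 25.2% (median -1.17). DKK1 and SP5 rose by 6.12 ± 0.85 (adjusted p = 4.5e-05) and 6.09 ± 0.88 (adjusted p = 6.3e-05), with WNT3A at 37.9 ± 3.34 CPM against 0.0353 ± 0.0595 in primed cells, and CDX2 was at least 15.7-fold higher. NODAL fell by 4.23 ± 0.38 (adjusted p = 7.4e-07), FGF8 fell by 4.05 ± 0.48 (adjusted p = 1.1e-05) and MIXL1 fell by 3.96 ± 0.65 (adjusted p = 0.0002). TDGF1, the Nodal coreceptor, and WNT8A, named by rule, fell in each of the 7 protocols, TDGF1 by 0.33 on the log2 scale in E-NHSM and by 3.15 in TL-CDK8i cells and WNT8A by 1.09 in TL-CDK8i cells. Of the paraxial and intermediate mesoderm genes there were 1 to 3 up and 0 or 1 down in each protocol, of 6 to 9 tested.

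**Figure D4:**
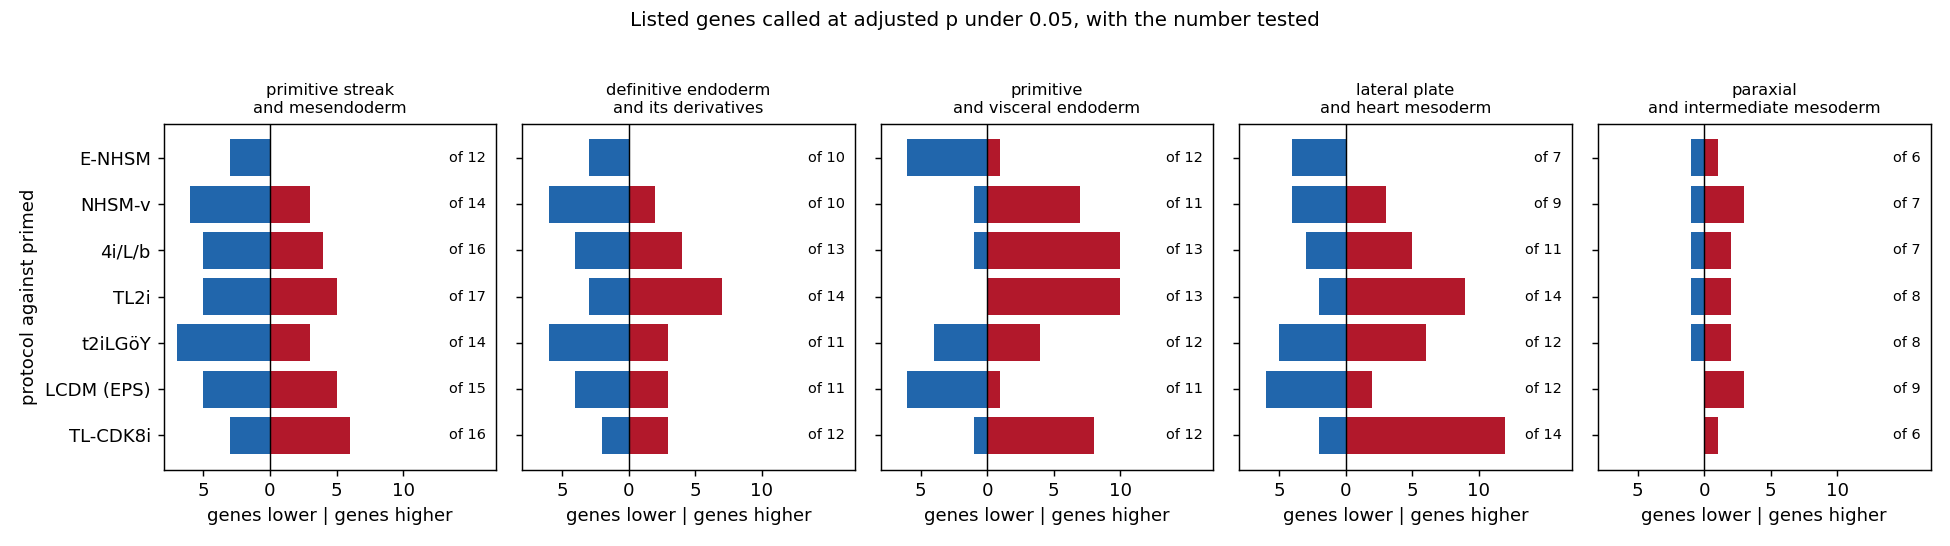
Number of listed genes lower (left of 0) and higher (right of 0) than primed cells at an adjusted p under 0.05 in each protocol (rows), for 5 lists of germ layer genes, with the number tested at the right edge. The longest bar to the right is that of lateral plate and heart mesoderm in TL-CDK8i cells, 12 of 14. The genes tested differ between protocols, as a gene without a primed count was tested only where the protocol expressed it and could not be lower.

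The genes whose levels were most like each regulator were ranked by Pearson's r of log2 CPM over the 27 libraries, among the 14752 genes kept over all groups. As libraries of a protocol share their culture, r is given as a description. SOX17 was closest to PLAC8 (r = 0.950), CCKBR (0.933) and PGA4 (0.918), and FOXA2 to APOA1 (0.881) and NUP210 (0.848). FOXA1 was closest to MEP1A (0.861), an intestinal and renal protease, F2 (0.861), which encodes the liver protein prothrombin, and PRTG (0.854). GATA4 was closest to CCKBR (0.843), BTAF1 (0.828) and GATA6 (0.814), the sole case in which a member stood among another member's nearest genes, and GATA6 to PRTG (0.877), DKK1 (0.877) and BGN (0.857).

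EOMES was closest to CDC42EP3 (0.910) and DACT3 (0.853), and T to CTHRC1 (0.876), SKA1 (0.808) and CSRP3 (0.792), a gene of striated muscle. FOXC1 was closest to ARID5B (0.873) and ITGA11 (0.873), and HAND2 had the weakest neighbours, DNAJC10 (0.781), PDZRN4 (0.773) and ACHE (0.772). Among the members themselves, the 10 pairs of endoderm factors had r between 0.619 and 0.814. EOMES had r of 0.0217 to 0.429 with those 5 genes and of 0.368 with T, and HAND2 and FOXC1 had r = 0.644 with each other.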

How the data were processed

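The deposited tables hold raw read counts per gene symbol, with 1 column per library, which the authors made from directional mRNA libraries of 200 ng RNA. The submitters' processing notes name bcl2fastq, cutadapt, HISAT2 and HTSeq. The genome build and annotation are not given in the sources used here, so reads shared between related genes could not be examined. The primed columns name the group only and carry the letters J and K.

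In R 4.3.3, edgeR 4.0.16 (filterByExpr, TMM, glmQLFit, glmQLFTest; with limma 3.58.1) was run on each protocol with the 6 primed libraries, and on the 21 protocol libraries for pairs of protocols, with Benjamini-Hochberg adjustment over all genes tested. The SE is the log2 fold change over the root of F. CPM used TMM factors over the 27 libraries, and correlations a prior count of 2. Folds against a group without counts used a floor of 3 counts per library, and ratios of 1 to 3 counts an exact binomial interval. Of 183 listed symbols, 179 were in the tables. Alternatives were DESeq2 1.42.0, upper-quartile scaling, no filter, at least 10 counts in 3 libraries, all 27 libraries in one fit, J or K columns alone, and each library left out; pairs of protocols were also fitted with a replicate block. On simulated counts, 77.8% of genes changed by 2 on the log2 scale were recovered for TL2i against primed (13374 genes) and 81.1% for TL-CDK8i (12968 genes). For a change of 1 these were 55.6% and 54.8%, and 4.35% and 5.88% of calls fell on unchanged genes. The changed genes were drawn from all genes kept, so these rates do not describe members near the floor.

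The members and lists were chosen with earlier results of these data known. Named by rule were all members, markers of the members' sites, the genes of a list called in the most protocols (up to 3 with the largest and 3 with the smallest fold change), and the 3 genes most like each member; a few genes that these rules name are not reported here.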

Additional observations from a re-analysis of the deposited data

Results flagged for a closer look

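In primed cells 3 regulators had 1 library far from the other 5, measured by the gap to the nearest library over the whole range, above Dixon's 95% critical value for 6 libraries. The ratio was 0.966 for SOX17 in J2, 0.719 for GATA6 in J3 and 0.632 for T in J1. By chance that value flags about 5% of groups of normally distributed values. These levels were low, with 4 of 6 primed libraries at 0 for SOX17 and 3 for GATA6 and for T. The 5% rate therefore does not apply to them, and the rate for such values was not measured. All 3 were J libraries, in which CER1 was also higher than in the K libraries, and whether both share a source was not tested.

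The effects of the protocols differed among themselves, as tested between every pair of the 7. At an adjusted p under 0.05 (edgeR's quasi-likelihood test), GATA6 differed in 18 of 21 pairs, SOX17 in 16, EOMES in 16, FOXA1 in 14, GATA4 in 13, FOXA2 in 12, T in 10, FOXC1 in 10 and HAND2 in 9. Of all tests of all genes over the 21 pairs, 53.8% passed, so FOXA2 was near that share and T, FOXC1 and HAND2 were below it.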

How the results depend on the processing

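Low counts limit most members, and several calls turn on 1 library. Members called numbered 1 in E-NHSM (2 with DESeq2, without a filter or with J columns, 4 with all 27 libraries in one fit), 2 in NHSM-v (1 with K columns), 2 in 4i/L/b (1 with DESeq2, 4 with all 27, 5 with K), 2 in t2iLGöY (4 with all 27, 1 with K), 1 in LCDM (EPS) (3 with K), 3 in TL-CDK8i (5 with all 27, 6 with K) and 4 between TL-CDK8i and TL2i (2 with all 27). With 1 library left out the counts ran from 1 to 2 in E-NHSM, 2 to 3 in NHSM-v, 0 to 4 in 4i/L/b, 3 to 6 in TL2i and 1 to 5 in TL-CDK8i, 2 to 5 between TL-CDK8i and TL2i and 3 to 5 between NHSM-v and E-NHSM; they stayed at 2 in t2iLGöY and 1 in LCDM (EPS). The pairs called ran from 109 to 129, and were 88 with all 27 libraries. The cause was not tested. The share of all genes called stayed within 1.5 times the reported one under every alternative run.

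The log2 differences that changed sign were none of them called. With J columns they were -0.74 for FOXA2 in 4i/L/b, -0.72 for FOXA2 in TL-CDK8i, and -0.59 for GATA4, -0.35 for GATA6 and 0.19 for FOXC1 in LCDM (EPS), and with K columns 0.0694 for FOXA2 in LCDM (EPS). With 1 library left out GATA4 ran from -1.58 to 0.31 in E-NHSM, -1.87 to 0.73 in NHSM-v, -0.10 to 1.60 in LCDM (EPS) and -0.87 to 1.06 between NHSM-v and E-NHSM; GATA6 from -0.74 to 1.24 and HAND2 from -0.82 to 0.47 in NHSM-v; FOXA2 from -0.14 to 0.66 in 4i/L/b and -0.24 to 0.65 in TL-CDK8i; HAND2 from -0.70 to 0.44 in TL2i; FOXA1 from -1.14 to 1.23 and T from -5.68 to 0.40 in t2iLGöY; and FOXC1 from -0.34 to 0.89 in LCDM (EPS).

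With the replicate block, 117 pairs were called against 118, with 4 between TL-CDK8i and TL2i and 5 between NHSM-v and E-NHSM as without it. Same-numbered libraries had a median correlation of their deviations of -0.00478, with 0 of 63 over 0.1. No paired analysis was possible against primed cells because the primed columns do not name single samples.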

Other observations

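Of genes of cortical intermediate progenitors, a site of EOMES, 10 of 10 tested rose in LCDM (EPS) cells, 9 of 9 in t2iLGöY and 8 of 8 in NHSM-v cells, while 0 of 3 rose and 1 fell in TL-CDK8i cells, where EOMES rose. Of neural crest genes, 10 of 11 rose in TL2i, 9 of 11 in both t2iLGöY and TL-CDK8i, 8 of 11 in 4i/L/b, 7 of 11 in NHSM-v, 6 of 11 in LCDM (EPS) and 2 of 9 in E-NHSM cells. Of sympathetic genes, 8 of 10 rose in t2iLGöY and 7 of 10 in LCDM (EPS) cells. Of floor plate and ventral midbrain genes, 5 of 10 rose and 1 fell in TL2i cells. Of genes of blood and endothelium, 0 to 3 rose and 0 to 3 fell in any protocol. Beside these counts, 11.1% of all genes tested were higher and 15.1% lower in E-NHSM cells, and 22.3% to 28.2% were higher and 23.8% to 30.6% lower in the other protocols.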
